A study of Arabidopsis thaliana with 6 samples.

Results

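Plastid-encoded photosynthesis genes are the subunit genes of the photosynthetic complexes that remained in the genome of the plastid. They were taken here as the probe sets with 1 annotated gene on the plastid genome and a symbol that begins with psa, psb, pet, atp, ndh or rbcL. This gave 43 genes, 1 probe set each, of 22810 probe sets on the array and of 69 plastid-encoded genes with a probe set of their own. The genes encode parts of photosystem I (5 genes), photosystem II (15), the cytochrome b6f complex (6), ATP synthase (6), the NDH complex (10) and Rubisco (1). The samples were mature pollen RNA of Arabidopsis thaliana in the Col-0 background, hybridised to 6 ATH1 arrays (Affymetrix), with 3 groups of 2. The groups were wild type (stock N1092), the insertion line SAIL_1168_C11, named TF1 in the labels, and the insertion line SALK_018864, named TF2. Plants of all groups were kept at 21 °C and 75% humidity, and no treatment is given. Each mutant group is 1 insertion line, the labels do not say which gene it hits, and SALK_018864 is known outside them as an insertion line of the pollen bZIP factor gene BZIP34. Whether replicates came from separate plants is not stated, so the p-values cover the spread between these arrays alone, and that spread may be technical.

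Photosystem II takes electrons from water, cytochrome b6f passes them on and pumps protons, photosystem I raises them to ferredoxin, and ATP synthase uses the proton gradient. The NDH complex returns electrons from ferredoxin to the plastoquinone pool, and Rubisco fixes carbon dioxide. Each of these complexes combines subunits made in the plastid with subunits encoded in the nucleus, and most plastid genes are read as polycistronic units by a bacterial-type polymerase. Pollen is not a green tissue: its plastids are non-photosynthetic, and in Arabidopsis plastid DNA is largely broken down as pollen matures. In bulk samples, fewer cells of a type and less RNA per cell cannot be told apart. The arrays were labelled by the one-cycle protocol, which primes on poly(A), whereas plastid transcripts mostly lack stable poly(A) tails, so a signal is a relative measure. A difference in level between probe sets is therefore not read as a difference in transcript amount.

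Values are array signals on a linear scale. Log2 differences were taken as log2(signal + 10.3), where 10.3 is the 25th percentile of all values, which understates the change of dim genes. All adjusted p-values are from limma, fitted to the 6 arrays together, with Benjamini-Hochberg adjustment over all probe sets tested, and a gene is said to have fallen or risen only where this p was under 0.05. Median signal per array ran from 33.6 to 42.96, and replicate arrays correlated at 0.908 to 0.948 across probe sets. The labelled tissue was checked on markers of the pollen vegetative cell, matched by name to probe sets annotated with 1 gene. Of 13 listed, 8 were matched, among them ANX1, ANX2, ACT12 and TUB9, and all 8 read 329.8 or more on every array. Of 9 sperm cell markers 3 were matched, and of 10 markers of tapetum and anther wall AMS alone was, at 2.54 to 91.9. Listed genes that were not matched may still have a probe set on the array. Control probe sets of the 3′ ends of actin and GAPDH transcripts differed between the groups, at 573 to 794 on the wild-type arrays, 157 to 238 on the TF1 arrays and 84.6 to 140.0 on the TF2 arrays. Those of the 3′ end of ubiquitin transcripts read 4251 to 5354 in wild type, 3842 to 5770 in TF1 and 4108 to 5892 in TF2. At the 5′ end, 1 actin probe set was higher in TF2 (229 and 349) than in wild type (104 and 84.8). The other was lower (90.6 and 64.1 in TF2, 131 and 201 in wild type). Both GAPDH 5′ probe sets were lower in TF2 (49.2 and 31.2, and 135 and 114) than in wild type (158 and 137, and 661 and 407). The part of these controls in the results below was not tested.

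Every plastid-encoded photosynthesis gene was lower in both lines than in wild type, and most were lower still in TF2. Together the 43 genes took 0.893% and 0.737% of the summed signal of the wild-type arrays, 0.0943% and 0.0932% of the TF1 arrays and 0.0335% and 0.0328% of the TF2 arrays. Taken as ratios, these shares differed far less between replicates than between groups. The median signal of the 43 genes was 579 and 451 (wild type), 88.5 and 84.5 (TF1) and 32.0 and 41.2 (TF2). All 43 genes read lower on each of the 4 line arrays than on either wild-type array, as did 23.4% of all tested probe sets (31.3% for TF1 alone and 31.8% for TF2 alone). Wild type replicate 1 read above replicate 2 for 33 of the 43 genes. With signals under 10.3 raised to that value, the pseudocount, the share of the wild-type mean left had a median of 15.8% in TF1 and 5.32% in TF2. Among the 40 genes with no TF1 array under 10.3 it ranged from 3.95% for ndhJ to 34.3% for psbD. Among the 30 genes with no such TF2 array it ranged from 2.42% for psaI to 38.6% for petD, and the other 13 genes have only an upper bound in TF2, at most 0.837% for atpH.

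**Figure D1:**
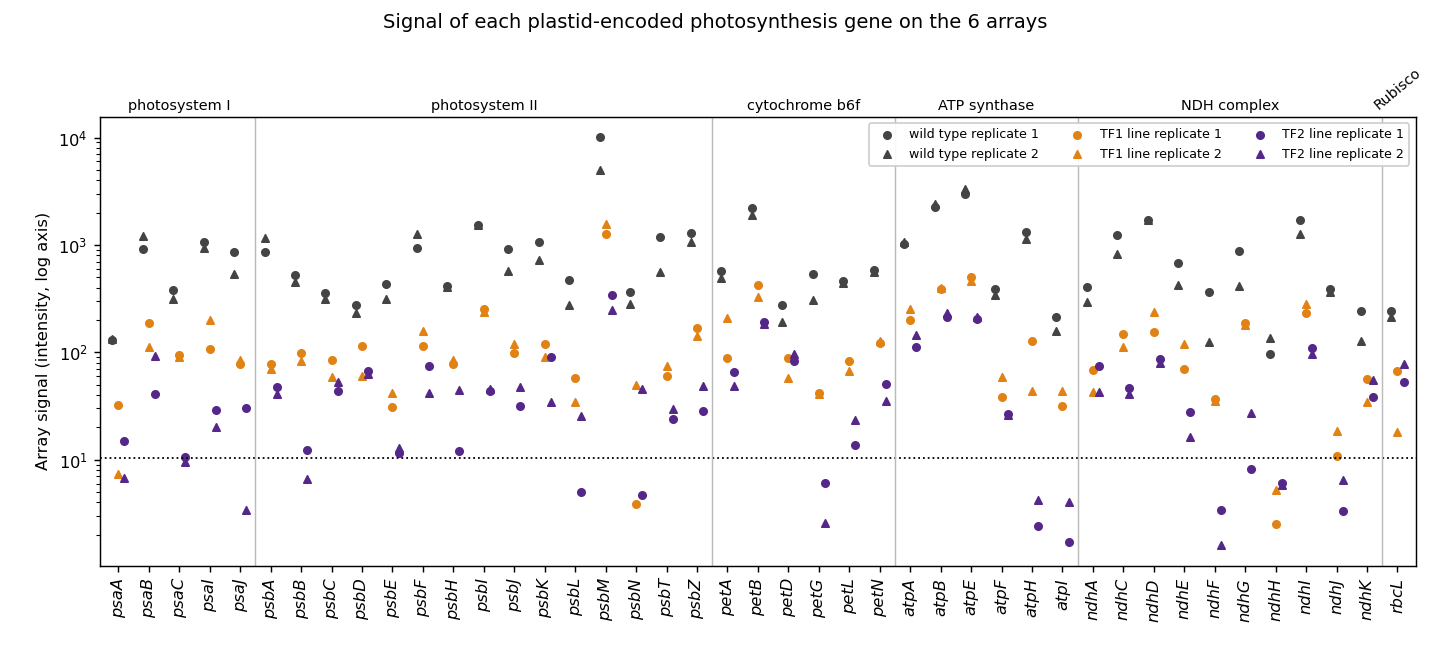
Signal of each of the 43 genes on the 6 arrays (log axis, intensity), grouped by complex. Circles are replicate 1 and triangles replicate 2, and the dotted line is the pseudocount of 10.3. The 4 line arrays lie below both wild-type arrays for every gene, and heights are not comparable between genes.

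Of the 43 genes, 42 passed the filter on dim probe sets, and all 42 fell in TF1, where 9.64% of all tested probe sets fell (7.36% after median centring of the arrays). All 42 also fell in TF2, against 16% of all tested probe sets (14.1% after median centring). Their median log2 difference was −2.50 in TF1 and −3.94 in TF2, beside medians over all tested probe sets of −0.02 and 0.05. The filter was on the mean of all arrays, so a gene could pass by its wild-type signal alone. Without the filter all 43 were tested and all 43 fell in both lines, with 4.3% and 7.82% of all probe sets falling. The 2 comparisons share their wild-type arrays. In TF1, 28 genes were called in each analysis that tested them, with ndhH counted although the main fit did not test it. A call was lost in at least 1 alternative by atpI, ndhF, ndhG, ndhK, petA, petD, petG, psaA, psaC, psaJ, psbD, psbH, psbL, psbN and rbcL. In TF2, 39 were called in each analysis that tested them, again with ndhH counted, and ndhK, petD, psbN and rbcL lost their call at least once.

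Photosystem I had 5 measured genes, all lower in both lines, with median log2 differences of −2.70 in TF1 and −4.12 in TF2. The core subunits PsaA and PsaB bind the chlorophylls and the primary electron carriers. The signal of psaA was 131 and 134 (wild type), 32.3 and 7.38 (TF1) and 14.99 and 6.78 (TF2), so the lines overlapped each other and only wild type stood apart (TF2 minus wild type −2.78, SE 0.67, adjusted p = 0.00694). In TF1 its call (−2.38, SE 0.67, adjusted p = 0.0229) was lost without TF1 replicate 2 (adjusted p = 0.0928), after quantile normalization (0.0537) and without the intensity trend (0.05996). For psaB the differences were −2.76 in TF1 and −3.86 in TF2. The stromal subunit PsaC carries the terminal iron-sulphur clusters. Its gene read 380.1 and 311 (wild type), 94.1 and 89.9 (TF1) and 10.6 and 9.49 (TF2), 3 levels with no overlap, and fell from TF1 to TF2 by 2.33 on the log2 scale (SE 0.35, adjusted p = 0.00235). The small membrane subunits PsaI and PsaJ have a single transmembrane helix each. The signal of psaI was 1069 and 943 (wild type), 106 and 199 (TF1) and 28.8 and 19.98 (TF2), again with no overlap between groups (TF2 minus wild type −4.88, SE 0.30, adjusted p = 3.54e-07). Its neighbour in TF2 by size of change was psaJ, which went to 11.6% of wild type in TF1 and at most 2.90% in TF2, where its arrays differed widely at 30.5 and 3.37.

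Photosystem II had 15 measured genes, with median log2 differences of −2.74 in TF1 and −4.04 in TF2. The core proteins are D1 (psbA) and D2 (psbD), which hold the reaction centre, and the inner antennae CP47 (psbB) and CP43 (psbC). In TF2 the fall of these genes ranged widely: −4.66 for psbB, −4.22 for psbA, −2.56 for psbC and −1.81 for psbD. The signal of psbD was 275 and 233 (wild type), 114 and 60.2 (TF1) and 66.9 and 62.4 (TF2), with the TF2 arrays inside the range of the TF1 arrays (TF2 minus wild type −1.81, SE 0.33, adjusted p = 0.00125). That of psbB was 521 and 451 (wild type), 98.1 and 83.3 (TF1) and 12.2 and 6.64 (TF2), which set the TF2 arrays well below the TF1 arrays (TF2 minus TF1 −2.36, SE 0.34, adjusted p = 0.00174), a call lost when the arrays of the lines were fitted alone (adjusted p = 0.136). D1 turns over fastest of these proteins in green leaves, and psbA dropped to 7.31% of wild type in TF1 and 4.34% in TF2.

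The cytochrome b559 genes psbE and psbF, whose products bind 1 haem between them, had close values, differing in TF1 by −3.03 and −2.92 from wild type, and in TF2 by −4.08 and −4.04. The 8 small-subunit genes psbH, psbI, psbJ, psbK, psbL, psbM, psbT and psbZ ranged from −3.42 to −2.19 in TF1 and from −4.82 to −3.57 in TF2. Among them psbI had close replicates throughout, at 1535 and 1548 (wild type), 252 and 236 (TF1) and 43.96 and 45.2 (TF2). The groups were far apart, and psbI fell against wild type in TF2 (−4.82, SE 0.19, adjusted p = 2.01e-08) and from TF1 to TF2 (−2.21, SE 0.19, adjusted p = 2.89e-05). It was the 1 gene whose fall from TF1 to TF2 held in each alternative analysis. The signal of psbM was 10032 and 5032 (wild type), 1259 and 1582 (TF1) and 342 and 250.5 (TF2), so its wild-type arrays differed most, without any overlap of groups (TF2 minus wild type −4.55, SE 0.26, adjusted p = 1.98e-07). The gene psbN, which lies on the opposite strand to its neighbours and encodes an assembly factor of photosystem II, read 366 and 282 (wild type), 3.91 and 50.1 (TF1) and 4.72 and 45.6 (TF2). One array of each line was below the pseudocount and the other near 50, so the lines could not be separated (TF2 minus TF1 −0.02, adjusted p = 0.995).

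The cytochrome b6f complex had 6 measured genes, with medians of −2.27 in TF1 and −3.42 in TF2. The redox-active and quinone-binding subunits are cytochrome f (petA), cytochrome b6 (petB) and subunit IV (petD). The signal of petD was 276 and 193 (wild type), 88.5 and 57.4 (TF1) and 83.4 and 97.3 (TF2). Here TF2 was not below TF1, and the fall against wild type was the smallest of the 43 genes in TF2 (−1.26, SE 0.32, adjusted p = 0.01), a call lost without wild type replicate 1 (adjusted p = 0.155). The next gene upstream, petB, fell by 3.39 in TF2 on the log2 scale. The small subunits PetG, PetL and PetN each have a single membrane helix. The signal of petG was 536 and 308 (wild type), 41.7 and 40.95 (TF1) and 6.06 and 2.602 (TF2), with both TF2 arrays under the pseudocount (TF2 minus wild type −4.84, SE 0.46, adjusted p = 9.95e-06). For petL and petN the TF2 differences were −4.01 and −3.45.

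ATP synthase had 6 measured genes, 3 for the catalytic head CF1 and 3 for the membrane part CFo, with medians of −2.61 in TF1 and −3.60 in TF2. The most negative TF2 difference of all 43 genes was that of atpH, which encodes the c subunit of the rotating ring. Its signal was 1331 and 1136 (wild type), 127 and 43.9 (TF1) and 2.403 and 4.21 (TF2). The TF2 arrays were at the bottom of the scale, below the pseudocount, and the TF1 arrays differed from each other by a larger ratio than the wild-type arrays did (TF1 minus wild type −3.84, SE 0.41, adjusted p = 6.35e-05, TF2 minus wild type −6.51, SE 0.41, adjusted p = 4.28e-07). The other CFo genes, atpI and atpF, differed by −3.88 and −3.36 in TF2. Among the CF1 genes, the signal of atpA, for the α subunit, was 1015 and 1075 (wild type), 199 and 255 (TF1) and 113 and 146 (TF2) (TF2 minus wild type −2.93, SE 0.20, adjusted p = 8.97e-07). For atpB and atpE, for the β and ε subunits, the TF2 differences were −3.32 and −3.85.

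The NDH complex had 10 measured genes, of which 9 passed the filter, with medians of −2.45 in TF1 and −4.13 in TF2. Those of the membrane arm, which moves protons, are ndhA, ndhC, ndhD, ndhE, ndhF and ndhG, and those of the connecting arm are ndhH, ndhI, ndhJ and ndhK. The signal of ndhG was 878 and 413 (wild type), 187 and 179 (TF1) and 8.15 and 27.1 (TF2). It kept 28.3% of its wild-type signal in TF1 and at most 2.90% in TF2, where 1 array was under the pseudocount. On the log2(signal + 10.3) scale its TF2 minus TF1 difference was the most negative of the members (−2.88, SE 0.40, adjusted p = 0.00125), a rank that the pseudocount bears on, since it limits the difference of genes with dimmer TF2 signals such as atpH. The fall of ndhG from TF1 to TF2 missed the threshold without the intensity trend (adjusted p = 0.0719). By contrast ndhA read nearly alike in both lines, with differences from wild type of −2.45 in TF1 and −2.40 in TF2.

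In the connecting arm, ndhJ read 387 and 361 (wild type), 10.9 and 18.7 (TF1) and 3.36 and 6.49 (TF2), close to or under the pseudocount in both lines (TF1 minus wild type −3.95, SE 0.53, adjusted p = 0.000262, TF2 minus wild type −4.66, SE 0.53, adjusted p = 3.61e-05). The adjacent gene ndhK read 241 and 127 (wild type), 56.3 and 34.8 (TF1) and 38.4 and 55.7 (TF2), with the arrays of the lines intermixed. Its difference from wild type was the smallest of the NDH genes in TF2 (−1.71, SE 0.43, adjusted p = 0.00999), and that call was lost without wild type replicate 1 (adjusted p = 0.199). The 1 member that failed the filter was ndhH, at 97.1 and 136 (wild type), 2.53 and 5.19 (TF1) and 6.05 and 5.78 (TF2). Tested without the filter, ndhH fell in TF1 (−3.15, SE 0.67, adjusted p = 0.00957) and in TF2 (−2.95, SE 0.67, adjusted p = 0.0101), with all 4 line arrays below the pseudocount.

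Rubisco was represented by rbcL, the gene of the large subunit. Its signal was 245 and 214 (wild type), 66.7 and 17.95 (TF1) and 53.3 and 77.5 (TF2). The lines overlapped, and TF2 was not below TF1 (TF1 minus wild type −2.36, SE 0.46, adjusted p = 0.00285, TF2 minus wild type −1.68, SE 0.46, adjusted p = 0.0151, TF2 minus TF1 0.68, adjusted p = 0.477). The TF2 call for rbcL was lost without either wild-type array (adjusted p = 0.135 without wild type replicate 1 and 0.0865 without wild type replicate 2), without TF2 replicate 1 (0.0768) and without the intensity trend (0.0729).

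**Figure D2:**
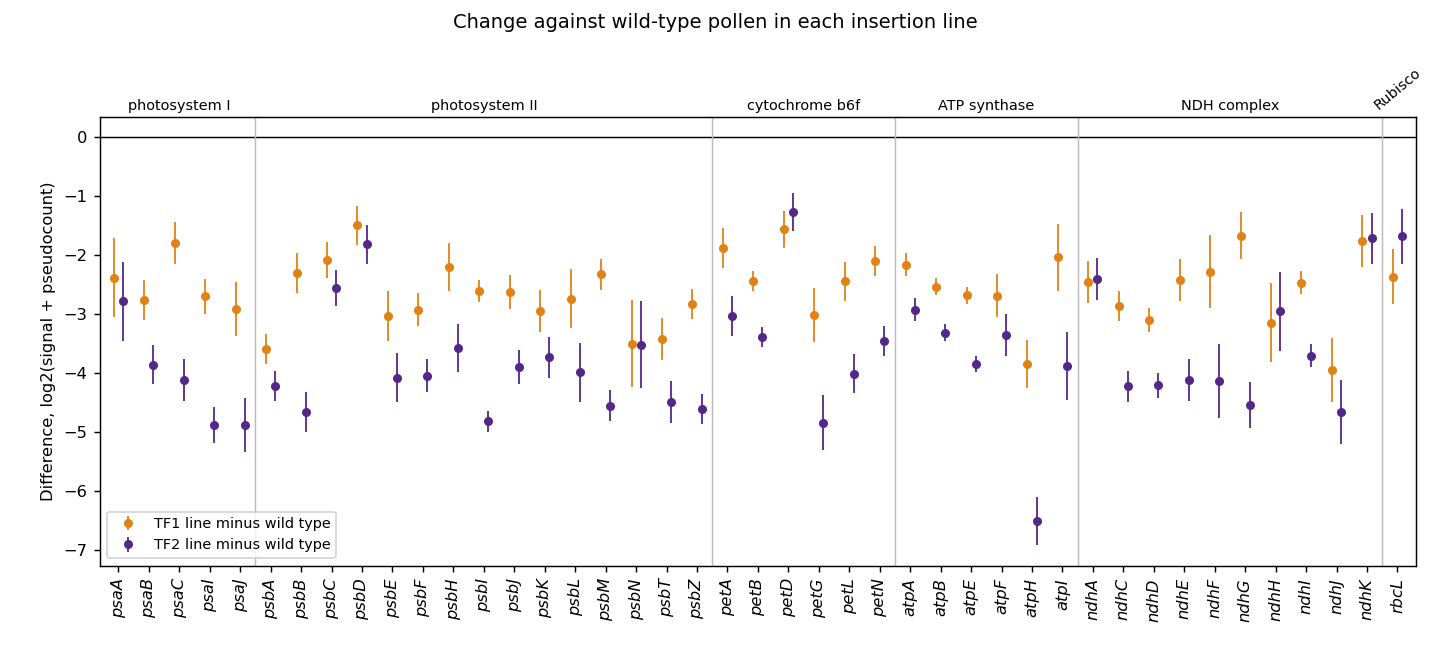
Log2 difference from wild type of each gene in TF1 (orange) and TF2 (purple), with its standard error from limma without the filter, grouped by complex. Both lines share the wild-type arrays. TF2 points lie below TF1 points for 38 of 43 genes, and petD, ndhA, ndhH, ndhK and rbcL are the 5 exceptions.

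Between the lines, 21 of the 42 tested genes were lower in TF2 than in TF1 and 0 were higher, where 3.8% of all tested probe sets were lower in TF2 (3.71% after median centring). At an unadjusted p under 0.05 in limma, 32 were lower and 0 higher, where 11.3% of all tested probe sets were lower. The 5 positive differences ran from 0.05 for ndhK and ndhA to 0.68 for rbcL. The median difference was −1.16 on the log2 scale, beside 0.02 over all tested probe sets. Both TF2 arrays read below both TF1 arrays for 35 of the 43 genes, as they did for 22.6% of all tested probe sets. The calls were spread over 5 complexes: 3 of 5 photosystem I genes, 6 of 15 photosystem II genes, 4 of 6 cytochrome b6f genes, 3 of 6 ATP synthase genes and 5 of 9 NDH genes. The medians were −1.96 for photosystem I, −1.12 for photosystem II, −1.25 for cytochrome b6f, −0.98 for ATP synthase and −1.24 for NDH, and differences between complexes were not tested.

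This count depended on the fit more than those against wild type. It was 17 of 43 without the filter (1.42% of all probe sets) and 3 without the intensity trend. With the 4 arrays of the lines fitted alone it was 8, where 33 genes passed the filter. Calls over all 11373 tested probe sets dropped as well, from 432 lower to 156 without the trend and 215 with the line arrays alone. The count was also smaller without any 1 of the wild-type or TF1 arrays, as were the calls over all probe sets. With 1 array left out the median difference ran from −1.28 to −1.14. The sign was steadier: 35 of 43 genes had a negative difference in each alternative.

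The members were also read by the kind of subunit they encode, in groups made after the values were seen, and differences between these groups were not tested. The 3 small-subunit genes of photosystem I, psaC, psaI and psaJ, all fell from TF1 to TF2 (median −2.18), while psaA and psaB did not pass the threshold (−0.40 and −1.10). The 3 small-subunit genes of cytochrome b6f, petG, petL and petN, all fell (median −1.57), and of petA, petB and petD, petB did (−0.95, SE 0.17, adjusted p = 0.00752). Of the 4 core genes of photosystem II, psbB alone fell from TF1 to TF2, and of the 8 small-subunit genes 4 did: psbI, psbJ, psbM and psbZ. Of the cytochrome b559 genes, psbF fell (−1.12) and psbE did not pass (−1.05), and psbN (−0.02), in none of these groups, did not pass either. In ATP synthase, atpH (−2.67), atpE (−1.17) and atpB (−0.78) fell and atpI (−1.84), atpA (−0.76) and atpF (−0.68) missed the threshold. In the NDH complex 4 of 6 membrane-arm genes fell, and 1 of 3 tested connecting-arm genes.

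**Figure D3:**
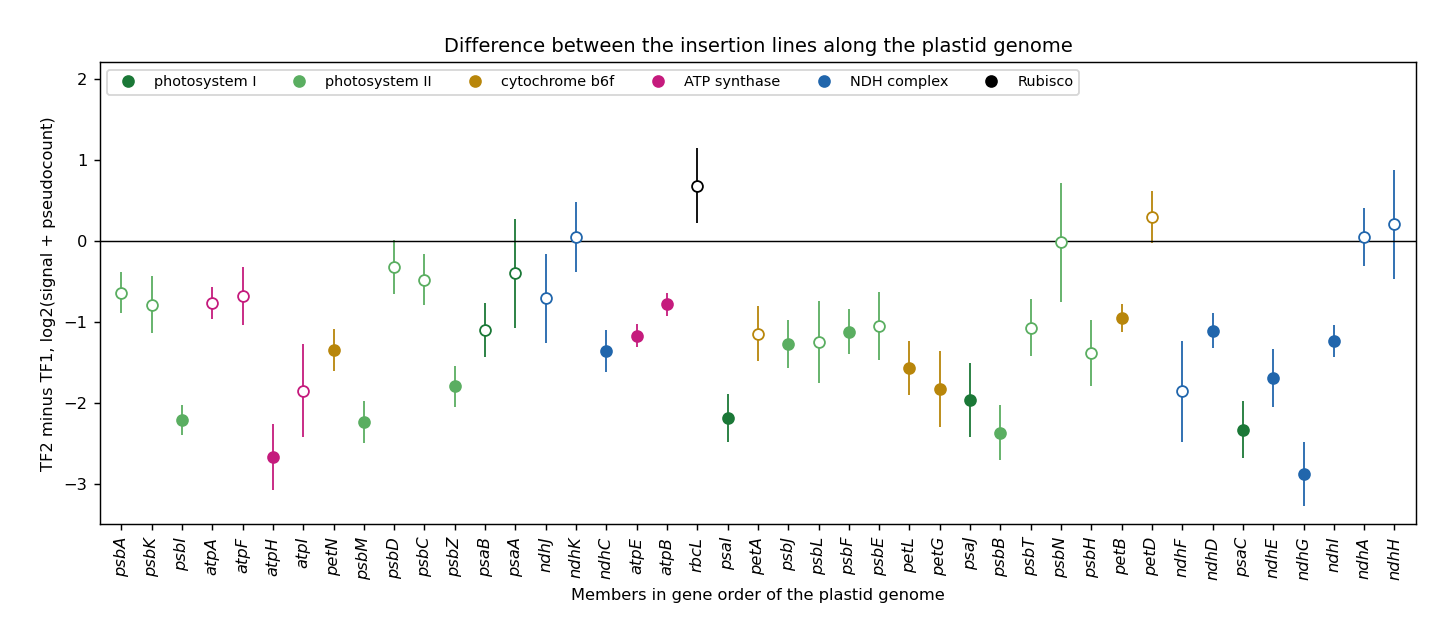
TF2 minus TF1 log2 difference, with standard error from limma without the filter, for the 43 genes in their order on the plastid genome and coloured by complex. Filled points passed the threshold of the filtered fit. Some genes that are near each other but not adjacent, such as psbB and petD, or ndhG and ndhA, have points far apart. Those of the adjacent psbJ, psbL, psbF and psbE lie together.

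Plastid genes are transcribed in groups, so members were also read by their textbook transcription units, 11 of which had more than 1 measured member. In some units the members moved alike. In the psbE unit (psbE, psbF, psbL and psbJ) the TF2 differences from wild type spanned 0.18 log2 units, from −4.08 to −3.90, and the TF2 minus TF1 differences spanned 0.22. The petL unit (petL, petG and psaJ) spanned 0.87 in TF2 against wild type, and the atpB unit (atpB and atpE) 0.53. The pseudocount limits the spans of the petL and psbE units. Both TF2 arrays of petG and 1 each of psaJ and psbL were under it. Other units were spread widely. In the atpI unit the TF2 differences ran from −6.51 for atpH to −2.93 for atpA, in the psbB unit from −4.66 for psbB to −1.26 for petD, and in the ndhC unit from −4.66 for ndhJ to −1.71 for ndhK. In the ndhH unit the TF2 minus TF1 differences ran from −2.88 for ndhG to 0.20 for ndhH, a span of 3.08 against 3.56 over all 43 genes. Differences between probe sets of a unit were not tested, and probe sets differ in their own response.

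Gene length followed the change in these data. Across the 43 genes, Spearman's rho between length in the RefSeq gene table (introns included) and log2 difference was 0.27 for TF1 minus wild type, 0.48 for TF2 minus wild type and 0.44 for TF2 minus TF1, so longer genes had milder falls. The 22 genes of up to 477 bp had a median TF2 minus TF1 difference of −1.37, and the 21 longer ones of −0.76. Wild-type signal moved with both: rho was −0.39 between wild-type signal and the TF2 minus TF1 difference, and −0.24 between length and wild-type signal. These ranks set signals of different probe sets side by side, although each probe set has its own response. The genes share the 6 arrays and, in part, transcription units, so these are descriptions across genes and not tests. Clear exceptions were psbB (1527 bp, −2.36) and ndhF (2241 bp, −1.85), long genes with large differences, and psbN (132 bp, −0.02).

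**Figure D4:**
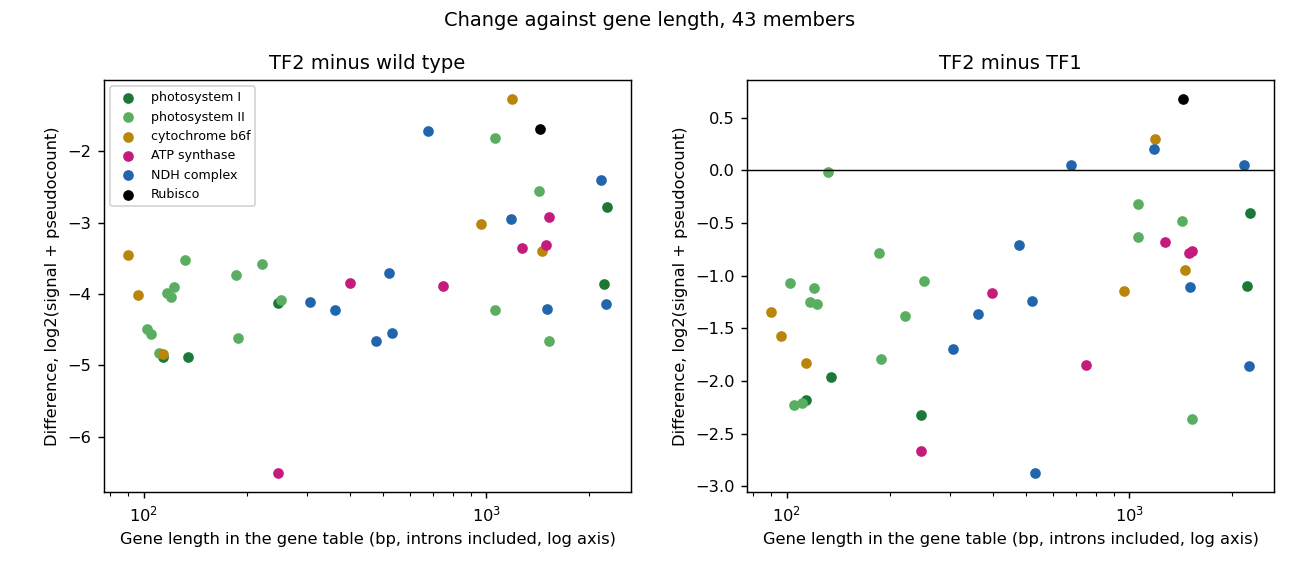
Log2 difference of TF2 from wild type (left) and from TF1 (right) against gene length on a log axis, 1 point per gene, coloured by complex. Genes of up to 477 bp have a median of −1.37 in the right panel and longer genes −0.76, with psbB and psbN as exceptions.

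The nuclear-encoded partners of these complexes were read beside them. Of 70 listed genes 13 were matched by name to a probe set annotated with 1 gene, and 12 of these passed the filter. In both lines 9 fell: RCA, PSBY, PSAN, LHCB4.1, LHCB4.2, PSAE-1, NdhS, ATPC1 and PSBW. Over all tested probe sets, 9.64% fell in TF1 and 16% in TF2. RCA encodes Rubisco activase, which is not a subunit of Rubisco. The median of the 12 tested genes was −2.33 in TF1 and −2.82 in TF2. The 3 tested genes that did not pass the threshold in either line were NdhN (−1.25 in TF1 and −0.25 in TF2), NdhL (−0.89 and 0.17) and the antenna gene LHCB4.3 (−0.46 and −0.04). Between the lines 0 of the 12 nuclear genes passed the threshold in limma (0 lower and 1 higher at an unadjusted p under 0.05, and 2 lower without TF2 replicate 2), and their median TF2 minus TF1 difference was −0.14, beside −1.16 for the plastid-encoded genes. Of these 12 differences 7 were negative, from −0.68 for LHCB4.1 to −0.04 for NdhS, with −0.64 for PSAE-1 and ATPC1. The positive ones were those of RCA (0.41), PSBY (0.21) and the 3 genes that had not fallen in either line. These 3 were NdhN (1.00), NdhL (1.05) and LHCB4.3 (0.42), and they raise the median. PSAN, a lumenal subunit of photosystem I with a difference of −0.24, read 461 and 442 (wild type), 62.2 and 62.9 (TF1) and 52.01 and 51.2 (TF2). The difference between the nuclear and the plastid group was not tested.

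The other 26 plastid-encoded genes gave like counts: 25 fell in each line (against 9.64% and 16% of all tested probe sets), with medians of −2.36 and −3.32. Between the lines 14 were lower in TF2 than in TF1 (against 3.8% of all tested probe sets), with a median of −1.09. That count of 14 was 6 without the intensity trend and 7 with the line arrays alone, where 156 and 215 of all 11373 tested probe sets were lower. It was also smaller without any 1 of the wild-type or TF1 arrays. Of 23 probe sets for mitochondrion-encoded genes, 15 passed the filter on the mean of all arrays. Of these 15, 8 fell in TF1 and 11 in TF2, with medians of −1.49 and −2.01, and 1 was lower in TF2 than in TF1 (median −0.47). Without the filter 7 of 23 fell in TF1 and 12 in TF2, where 4.3% and 7.82% of all probe sets fell. The medians were then −1.49 and −1.71, with differences up to 1.32 and 2.07. The TF1 count of 8 was 5 without the trend, where 381 of all 11373 tested probe sets fell. Both counts, 8 and 11, were smaller without either wild-type array. The medians were then −1.44 and −1.95 without wild type replicate 1, and −1.44 and −1.98 without wild type replicate 2. None of 38 listed nuclear genes for plastid transcription and RNA processing was matched by name to a probe set annotated with 1 gene. The array may still carry probe sets for them, and they were not read.

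Pollen markers moved the other way on the same arrays. The summed signal of the 8 vegetative cell markers was 18266 and 17029 (wild type), 32422 and 30474 (TF1) and 39958 and 36278 (TF2). That of the 3 sperm cell markers was 647 and 773 (wild type), 1426 and 1391 (TF1) and 1469 and 1281 (TF2), with 1 marker risen in each line. All 8 vegetative cell markers rose in both lines (median 0.80 and 0.91), where 11.9% and 14.8% of all tested probe sets rose. After quantile normalization 3 of 8 passed in each line, with medians of 0.29, where 1062 and 1725 of all 11373 tested probe sets rose. Without the intensity trend 0 of 8 passed in TF1 and 3 in TF2, where 75 and 802 of all tested probe sets rose. Fewer markers passed in each line without wild type replicate 2, with medians of 0.73 and 0.89. The summed signal of the 13 nuclear photosynthesis genes was 6147 and 5942 in wild type and 745 to 975 on the 4 line arrays, with the antenna gene LHCB4.2 at 3.32 to 14.8 there. The part of other cell types, of RNA quality or of the actin and GAPDH control differences in the fall of the plastid genes was not tested.

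**Figure D5:**
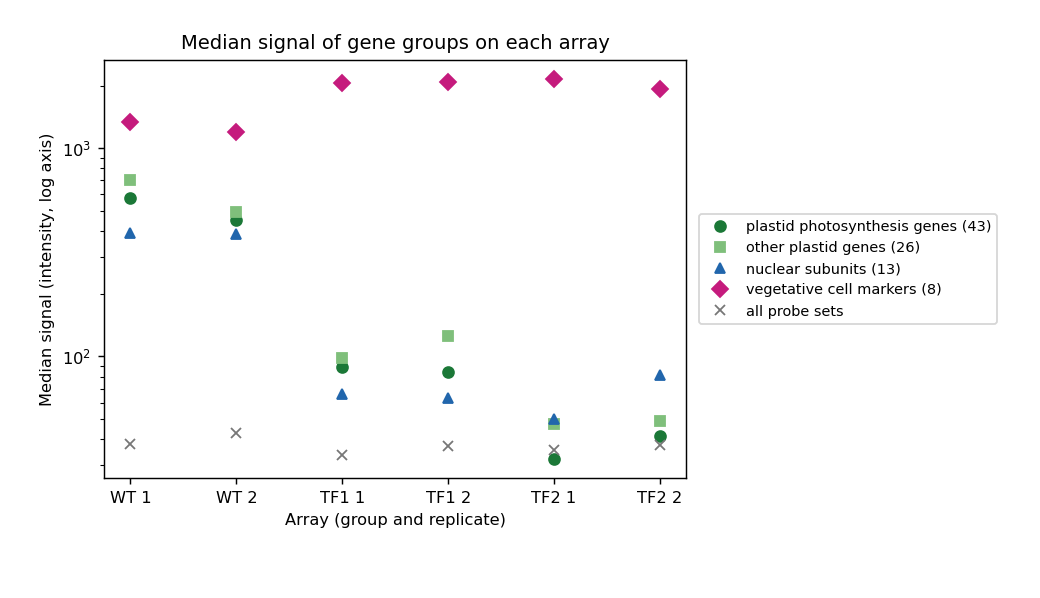
Median signal (log axis, intensity) on each array of the 43 plastid photosynthesis genes, 26 other plastid genes, 13 nuclear genes, 8 vegetative cell markers and all probe sets. The 13 are labelled nuclear subunits and include RCA, which is not one. The plastid photosynthesis genes step down from 451 or more in wild type to at most 88.5 in TF1 and 41.2 in TF2, while the nuclear genes read 66.1 and 62.9 in TF1 and 49.98 and 81.04 in TF2.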

How the data were processed

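Signal intensity was deposited unlogged for every probe set of each array, and MAS5 and GCOS are named per the submitters' processing notes, with settings and versions not given in the sources used here. On each array the mean after trimming 2% at each end was 100.0, a scaling that was kept. No present or absent calls were used, and precision is limited by how few arrays there are. The 43 members were found through GEO's platform annotation and a RefSeq gene table (TAIR10.1), which gave names, gene order and length. That table marks plastid genes by chromosome. The probe set shared by both copies of ndhB was left out.

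Of 22810 probe sets, 64 controls were left out, and 11373 with a mean log2 value at or above the median were tested in limma 3.58.1 (R 4.3.3; lmFit, then eBayes with an intensity trend), two-sided, with a threshold of 0.05. Exact permutation of 2 arrays against 2 cannot pass that threshold. The fit was checked on simulated data. Per-array values are given for the members with the largest and smallest TF2 change in each complex, the 6 with the largest difference between lines and any that missed a call. Members and lists were chosen with earlier results of these data known. Alternatives changed the pseudocount, filter, scaling, trend, arrays fitted and block. No columns were left unmapped (0). Replicate numbers did not pair the arrays.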

Additional observations from a re-analysis of the deposited data

Results flagged for a closer look

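The 2 lines differed in how far 21 of the plastid-encoded photosynthesis genes lay below wild type, by limma's TF2 against TF1 contrast (adjusted p under 0.05, n = 2 arrays per group), each with the lower signal in TF2. In photosystem I these were psaC (−2.33), psaI (−2.18) and psaJ (−1.96). In photosystem II they were psbB (−2.36), psbM (−2.23), psbI (−2.21), psbZ (−1.79), psbJ (−1.27) and psbF (−1.12). In cytochrome b6f they were petG (−1.83), petL (−1.57), petN (−1.35) and petB (−0.95). In ATP synthase they were atpH (−2.67), atpE (−1.17) and atpB (−0.78). In the NDH complex they were ndhG (−2.88), ndhE (−1.69), ndhC (−1.36), ndhI (−1.24) and ndhD (−1.11). In the alternative analyses psbI alone kept this call throughout, and each of the other genes lost it in at least 1. Groups of 2 arrays are too small for a check of 1 array against the others of its group.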

How the results depend on the processing

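All 43 genes kept a negative difference from wild type in both lines under each alternative that tested them. The count that fell was 30 in TF1 and 41 in TF2 without the intensity trend, and with 1 array left out it lay between 29 and 42 in TF1 and between 34 and 42 in TF2, partly because up to 5 genes then failed the filter. The median difference moved beyond the spread between replicates (0.19) in TF1 after quantile normalization (−2.74), in TF2 with the pseudocount at the 10th percentile (−4.30) or at the median of all values (−3.24), and between the lines with the latter (−0.88). With 1 array left out the medians ran from −2.68 to −2.39, −4.09 to −3.80 and −1.28 to −1.14 in the same order. The count lower in TF2 than in TF1 was 3 without the trend, 8 with the 4 line arrays alone and 11 to 21 with 1 array left out, and the cause was not tested beyond the smaller number of genes kept (33) with the line arrays alone. Near-zero differences between the lines changed sign: psbN to 0.00800 with the smaller pseudocount, and ndhK to −0.031 and ndhA to −0.0066 after quantile normalization. With 1 array left out psbN ran from −1.06 to 1.03, ndhK from −0.23 to 0.33, ndhA from −0.29 to 0.39, psbD from −0.73 to 0.088, psaA from −1.03 to 0.23 and rbcL from −0.043 to 1.402. Arrays with the same replicate number did not deviate together (correlations 0.0020 to 0.022), and with the replicate block 42, 42 and 22 genes were called. Over all probe sets the calls were 2453, 3506 and 529, and 456, 2185 and 175 without the trend, 274 between the lines with the line arrays alone, and 1266 to 2817, 2113 to 3543 and 217 to 589 with 1 array left out. Quantile normalization moved the median of all tested probe sets from −0.02 to 0.11 in TF1, and median centring moved it to 0.14. Signals under the pseudocount have no order, which limits the TF2 values most, where 8 of the 43 means lay below it.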

Other observations

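The probe set shared by both copies of ndhB, the NDH gene of the inverted repeat, gave signals of 171 and 166 (wild type), 62.1 and 54.6 (TF1) and 5.61 and 50.98 (TF2). It missed the threshold in TF1 (−1.38, SE 0.57, adjusted p = 0.114) and fell in TF2 (−2.51, SE 0.57, adjusted p = 0.00502), in limma with n = 2 arrays per group, although 1 TF2 array was close to the TF1 arrays.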
